A study of Mus musculus with 6 samples.

Results

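Antigen presentation by MHC class II is described here through 5 genes, measured in 6 libraries of mouse macrophages. They are Ciita, the transcriptional regulator of the pathway, the paired chains H2-Aa and H2-Ab1, the invariant chain gene Cd74, and H2-DMb1, a chain of the peptide-exchange factor H2-DM. They were taken by gene symbol, 5 of the 714 genes in the deposited table, after earlier results of these data were known. Only genes whose unadjusted p was under 0.05 and whose genotypes were 2-fold or more apart are in that table. That all 5 differ is therefore a condition of being in it, and the sizes, the ratios between the genes and the spread over libraries are what is described.

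Messenger RNA was sequenced from bone marrow-derived macrophages of C57BL/6 mice, grown out of flushed marrow for 6 days with the myeloid growth factor GM-CSF at 10 ng/ml. 3 libraries were wild type and 3 were Senp8+/-, a heterozygote for the gene of a protease that processes NEDD8 and removes it from other proteins. The titles of the Senp8+/- libraries call them KO. All 6 cultures received beads carrying biotinylated mouse CD47, the ligand of the inhibitory receptor SIRPα, and RNA was taken 24 h later. No culture without these beads was analysed here, so every value is from CD47-exposed cells. The labels give neither age nor sex of the mice. They also do not say whether replicates were separate mice or cultures, and a p-value here reflects only the variation among libraries, part or all of which may be technical. Values are normalised counts, reads divided by 1 size factor per library (0.933 to 1.14), and errors are SD with n = 3 libraries per genotype unless another is named. Reads over the listed genes ranged from 205957 to 491156 per library, and total depth is unknown here. Senp8 was not analysed here, so its level does not check the genotype labels. Of 13 macrophage markers only C1qa and C1qc were in the table, so the cell type was not checked against the others.

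MHC class II molecules are αβ pairs that show peptides from engulfed material to CD4+ T cells. The invariant chain CD74 holds new pairs together and fills their groove on the way to the endosome. There H2-DM, a pair of H2-DMa with an H2-DMb chain, exchanges the last piece of CD74 for peptide, and H2-O restrains H2-DM. CIITA binds no DNA itself: it is recruited by RFX, CREB and NF-Y proteins, which sit on the X and Y boxes of class II promoters. Ciita is transcribed from several promoters, of which one is used mainly in myeloid dendritic cells and another responds to interferon-γ. Marrow grown with GM-CSF is known to yield dendritic-like cells rich in class II beside macrophages.

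All 5 genes lay lower in Senp8+/- macrophages at the deposited scaling, as did 79.7% of the listed genes, and the regulator differed by more than the genes it regulates. Ciita stood at 7.92% of its wild-type mean. The chains H2-Aa and H2-Ab1 stood at 30.8% and 29.1%, Cd74 at 31.4% and H2-DMb1 at 42.2%. The authors' deposited table gives each of the 5 an adjusted p under 0.05, which is the meaning of "fell" below. By the same rule 33.9% of the listed genes, and 1.65% of the 14694 genes in the authors' correction, fell. The 3 Senp8+/- values lay below the 3 wild-type values for all 5 genes, as the 2 ranges were also separate for 89.4% of the listed genes. Scaling the libraries instead so that the median ratio of the listed genes is 1 was chosen after seeing the data. It moved the Senp8+/- libraries up against wild type by 1.27 on the log2 scale, with low genes moving less on log2(value + 1). H2-DMb1 then turned to 0.0692. The other 4 stayed lower, with Ciita at -2.40 but H2-Aa at -0.39, H2-Ab1 at -0.49 and Cd74 at -0.40. Of the 5, only Ciita then kept an adjusted p under 0.05 in limma, the linear model used below. Directions below are at the deposited scaling, and genes that turned under this rescaling are named. In bulk RNA, fewer cells of a type that carries these transcripts and less of them per cell cannot be told apart.

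**Figure D1:**
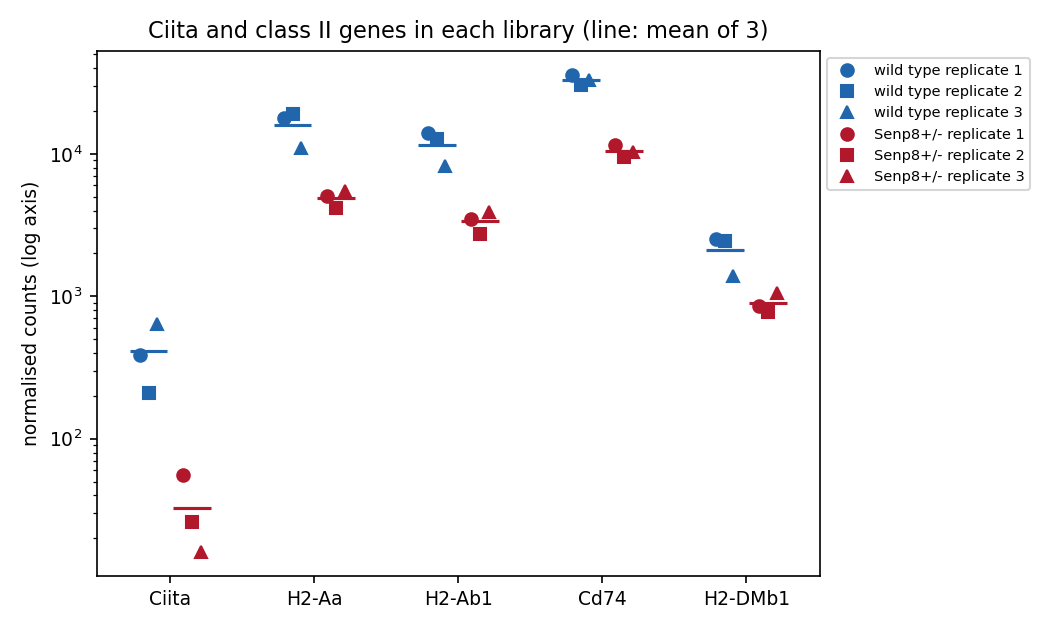
Normalised counts (log axis) of Ciita, H2-Aa, H2-Ab1, Cd74 and H2-DMb1 in each library, with symbols for replicate numbers, blue for wild type, red for Senp8+/- and a line at the mean of 3 libraries. Wild-type replicate 3 (blue triangles) was the highest library for Ciita at 640.4 and the lowest wild-type library for H2-Aa at 10902.

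Ciita (ENSMUSG00000022504; chromosome 16, 10480059 to 10528418 on the plus strand, GRCm38) had 55.6, 26.0 and 16.1 normalised counts in Senp8+/- replicates 1, 2 and 3. In wild-type replicates 1, 2 and 3 it had 384, 209 and 640.4. Its highest Senp8+/- library was thus 3.76-fold below its lowest wild-type library, although both genotypes were widely spread. The means were 32.6 ± 20.5 and 411 ± 217, a 12.6-fold fall (log2 fold change -3.66 and adjusted p = 1.75e-09 in the authors' deposited table). limma, a linear model on log2(value + 1), put it at -3.65 ± 0.49 (SE) on the log2 scale with an adjusted p of 0.00275. With each library left out in turn, the fall ran from 9.11-fold without wild-type replicate 3 to 19.5-fold without Senp8+/- replicate 1. In the latter case the Senp8+/- mean was 21.1.

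The spread of Ciita was wider than counting alone gives. The Senp8+/- values rested on 54, 28 and 15 reads. Exact Poisson 95% intervals, which cover counting error only, ran from 41.8 to 72.5 normalised counts in Senp8+/- replicate 1 and from 8.99 to 26.5 in replicate 3, so these libraries of one genotype were apart. In wild type, replicate 2 lay between 181 and 240.3 and replicate 3 between 595 and 688. The coefficient of variation was 63.1% in Senp8+/- and 52.8% in wild type, against 9.58% and 8.27% for Cd74. Per kilobase of gene model, Ciita had 43.1 normalised counts in wild type and 3.42 in Senp8+/-, the lowest level of the 5. The antisense gene Dexi overlaps Ciita, and since no source used here says that counting kept strand, their reads cannot be told apart where they overlap.

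The 2 chains of the class II molecule H2-A moved together. H2-Aa (ENSMUSG00000036594; chromosome 17, 34282744 to 34287827 on the minus strand), the α chain, had 5088, 4192 and 5470.0 normalised counts in Senp8+/- replicates 1, 2 and 3. It had 17883, 19138 and 10902 in wild-type replicates 1, 2 and 3. Replicate 3 was the low wild-type library, still 1.99-fold above the highest Senp8+/- one. The means of 4917 ± 656 and 15974 ± 4437 make a 3.25-fold fall (authors' deposited adjusted p = 5.74e-07; limma log2 fold change -1.67 ± 0.26 SE, adjusted p = 0.00671).

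H2-Ab1 (ENSMUSG00000073421; chromosome 17, 34263209 to 34269418 on the plus strand), the β chain, had 3469.9, 2743 and 3931 normalised counts in Senp8+/- replicates 1, 2 and 3. In wild-type replicates 1, 2 and 3 it had 13933, 12628 and 8258. The order of the libraries resembled that of H2-Aa, with replicate 3 highest in Senp8+/- and lowest in wild type. The fall was 3.43-fold, from 11606.5 ± 2972 to 3381.0 ± 599 (authors' deposited adjusted p = 1.09e-07; limma log2 fold change -1.76 ± 0.26 SE, adjusted p = 0.00500).

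Within each library the chains kept a narrow ratio. Per 1000 reads of H2-Ab1 there were 1466, 1528 and 1392 reads of H2-Aa in Senp8+/- replicates 1, 2 and 3 and 1283, 1515 and 1320.1 in wild-type replicates 1, 2 and 3. Such a ratio does not depend on the size factors. The genotypes overlapped, and the log2 ratio differed by 0.09 (0.55 ± 0.07 in Senp8+/-, 0.45 ± 0.13 in wild type; two-sided exact permutation test, p = 0.3, and 0.375 adjusted over 10 pairs of genes). Corrected for gene length, H2-Aa stood at 1.28 ± 0.06 times the level of H2-Ab1 in Senp8+/- and 1.20 ± 0.11 times in wild type.

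The promoters are shown because the class II genes share boxes there, through which CIITA is known to act. Windows of 250 bases before to 50 after a RefSeq start site (GRCm38.p6) were used for 7 of the 10 listed class II genes. None was found for Ciita or H2-Ab1. Cd74 was left out of the search, so whether its promoter holds these boxes was not tested. The Y box core TGATTGG and an X box core GNAACNGAT were searched on both strands; they share no bases in these windows. The Y core was in the windows of 6 of the 7 genes, and in 7.82% of all 32851 windows of that length. The X core was in those of H2-DMb1 and H2-Eb1, and in 2.05% of all windows. Both were in 0.189% of them.

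The 150 bases before the start site are given below for H2-Aa (chr17:34287824-34287973, minus strand) and for H2-Eb1 (chr17:34305717-34305866, plus strand), 5′ to 3′, with matches in capitals.
H2-Aa: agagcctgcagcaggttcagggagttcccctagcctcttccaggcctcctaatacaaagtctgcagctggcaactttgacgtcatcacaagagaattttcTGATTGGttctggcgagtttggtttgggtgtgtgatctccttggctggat
H2-Eb1: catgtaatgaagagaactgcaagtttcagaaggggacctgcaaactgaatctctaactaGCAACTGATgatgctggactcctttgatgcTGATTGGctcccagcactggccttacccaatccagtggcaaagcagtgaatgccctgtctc
Counted from the start site, the Y core began at -50 in H2-Aa, -61 in H2-Eb1 and -63 in H2-DMb1, on the coding strand in each. In H2-Eb1 the X core ended 21 bases before the Y core. The X core as spelled was not in the H2-Aa window. A match here describes letters only, and no binding was measured.

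Of the 2 genes with both cores, H2-Eb1 differed 3.23-fold and H2-DMb1 2.37-fold between genotypes. H2-Aa, with the Y core and no match to the X core as spelled, differed 3.25-fold. Other spellings of an X box were not searched, so these values do not compare genes with and without one. Some RefSeq starts lie away from the deposited gene starts: 1942 bases for H2-DMb2, and 9664 and 12350 for the 2 windows of H2-DMa, which held neither core.

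Cd74 was the steadiest of the 5 genes and the most abundant per kilobase. The gene (ENSMUSG00000024610; chromosome 18, 60803848 to 60812646) had 11463, 9486 and 10259 normalised counts in Senp8+/- replicates 1, 2 and 3. The wild-type replicates 1, 2 and 3 had 35986, 30516 and 32913. Unlike the chains, it was not low in wild-type replicate 3, which stood at 99.0% of the mean of the other 2 wild-type libraries, where H2-Aa stood at 58.9%. The means were 10403 ± 996 and 33139 ± 2742, a 3.19-fold fall (authors' deposited adjusted p = 2.82e-15; limma log2 fold change -1.67 ± 0.20 SE, adjusted p = 0.00145). Mir5107 lies within Cd74 on the same strand, so their reads could be shared.

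The ratio of class II chains to invariant chain did not separate the genotypes. H2-Aa reads per 1000 Cd74 reads were 444, 442 and 533 in Senp8+/- replicates 1, 2 and 3 and 497, 627 and 331 in wild-type replicates 1, 2 and 3. The log2 ratio differed by 0.01 (two-sided exact permutation test, p = 1, and 1 adjusted over 10 pairs), with SDs of 0.15 in Senp8+/- and 0.47 in wild type. H2-Ab1 over Cd74 differed by -0.09 on the log2 scale (p = 0.8, same exact test; 0.889 adjusted). With 3 libraries a genotype these tests cannot go below 0.1, and a missed threshold does not show that the ratios are equal.

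H2-DMb1 (ENSMUSG00000079547; chromosome 17, 34153072 to 34160230 on the plus strand) differed least. It had 851, 779.6 and 1049 normalised counts in Senp8+/- replicates 1, 2 and 3. Wild-type replicates 1, 2 and 3 had 2537, 2429 and 1380.4, so that the nearest libraries, both replicate 3, were 1.32-fold apart. The means fell 2.37-fold, from 2116 ± 639 to 893 ± 139, which was called in the authors' deposited table (adjusted p = 0.00367) but did not pass in limma (log2 fold change -1.20 ± 0.30 SE; adjusted p = 0.0833). Of the limma fits that left out a library, only that without wild-type replicate 3 passed, with an adjusted p of 0.0116. In the others the adjusted p ran from 0.248, without Senp8+/- replicate 3, to 0.650, without wild-type replicate 1. Of the 50-base stretches in its annotated transcripts, 22.7% are shared with the neighbour H2-DMb2, so reads can be split between them, and its value is uncertain to that extent. H2-DMb1 is also the gene that turned under the rescaling.

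Within libraries, H2-DMb1 was reduced less than the chains. H2-Aa reads per 1000 H2-DMb1 reads were 5977, 5377 and 5216 in Senp8+/- replicates 1, 2 and 3 and 7048, 7878 and 7897 in wild-type replicates 1, 2 and 3. H2-Ab1 gave 4076, 3518 and 3748 against 5491, 5199 and 5982. Neither ratio overlapped between genotypes, and their log2 differences were -0.46 and -0.56 (each p = 0.1, two-sided exact permutation test, the smallest 3 against 3 libraries allow, and 0.2 adjusted over 10 pairs). Cd74 over H2-DMb1 differed by -0.47 on the log2 scale, but its genotypes overlapped (p = 0.2, same exact test, and 0.286 adjusted).

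The comparison of the regulator with the chains and chaperones was made in the same way. Ciita reads per 1000 Cd74 reads were 4.85, 2.75 and 1.57 in Senp8+/- replicates 1, 2 and 3 and 10.7, 6.85 and 19.5 in wild-type replicates 1, 2 and 3. No Senp8+/- library reached the lowest wild-type one. The means of 3.05 ± 1.66 and 12.3 ± 6.46 are 4.04-fold apart, so in these libraries Ciita differed more than Cd74 did, whatever the scaling of the libraries.

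Ciita over H2-Ab1 and over H2-DMb1 was also lower without overlap, with log2 differences of -1.89 and -2.45, against -1.98 over Cd74 (each p = 0.1, two-sided exact permutation test; 0.2 adjusted over 10 pairs). Ciita over H2-Aa differed by -1.99 but met at the edge: Senp8+/- replicate 1 had 10.92 Ciita reads per 1000 H2-Aa reads, as did wild-type replicate 2 (p = 0.2, same exact test; 0.286 adjusted). Against the mean of the 4 other genes the log2 ratio was -6.88 ± 0.92 in Senp8+/- and -4.81 ± 1.08 in wild type, a difference of -2.08 (exact permutation p = 0.1).

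**Figure D2:**
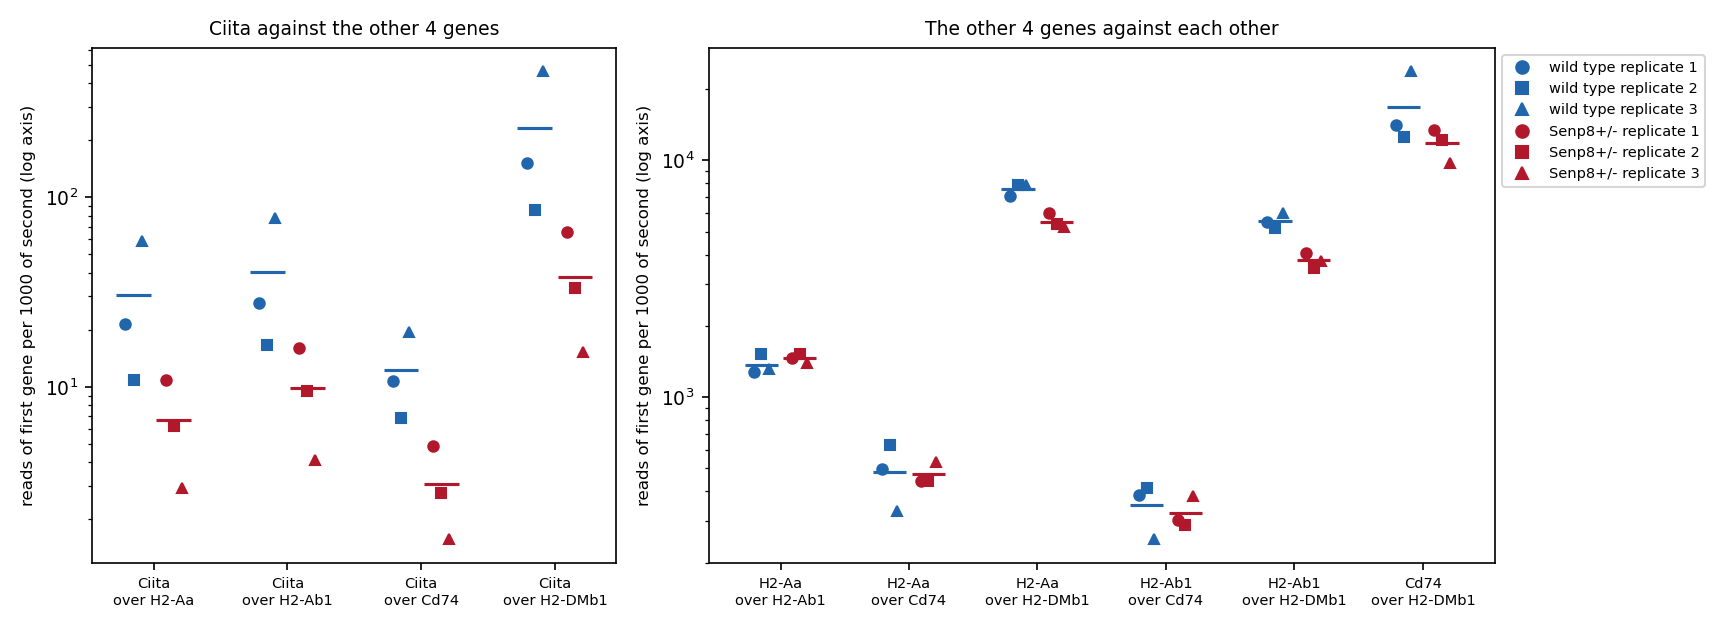
Reads of one gene per 1000 reads of another in the same library (log axes), for Ciita against the other 4 genes (left) and for these 4 against each other (right); symbols are libraries and lines are means of 3. Ciita over Cd74 does not overlap between genotypes (at most 4.85 against at least 6.85), while H2-Aa over H2-Ab1 lies between 1283 and 1528 in all 6.

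Within a genotype H2-Aa, H2-Ab1 and H2-DMb1 did not follow Ciita from library to library, while Cd74 shared some of its order. Wild-type replicate 3 had the most Ciita, 216% of the mean of the other 2 wild-type libraries. The same library had the least H2-Aa, H2-Ab1 and H2-DMb1, at 58.9%, 62.2% and 55.6% of that mean. In Senp8+/-, replicate 3 had the least Ciita and the most H2-Aa, H2-Ab1 and H2-DMb1. Cd74, like Ciita, was lowest of wild type in replicate 2 and highest of Senp8+/- in replicate 1, but its highest wild-type library was replicate 1 and its lowest Senp8+/- library replicate 2. H2-DMa was also highest of Senp8+/- in replicate 1. These are single libraries, and for 262 of the 569 listed genes lower in Senp8+/- the lowest wild-type library was likewise replicate 3. Of the 10 listed class II genes it was the lowest wild-type library for 7, and only for Ciita the highest. C1qa, a complement gene of macrophages, was also low there, with 4423 normalised counts against 9880 and 8733 in wild-type replicates 1 and 2; the part of this in the result was not tested.

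The wider class II pathway was read from a list of 27 annotated genes. 10 of them were in the table, each of them lower in Senp8+/- (9 under the rescaling, H2-DMb1 excepted), and 8 fell. Of all listed genes 79.7% were lower at the deposited scaling and 33.9% fell. By limma's adjusted p 6 of the 10 passed, against 20.9% of all listed genes that were lower by that rule. The median log2 fold change of the 10 in the authors' deposited table was -1.74, and that of all 714 listed genes -1.48. The 714 include 145 genes higher in Senp8+/-, so these medians are not of like sets. In limma, leaving out Senp8+/- replicate 1 lowered the count to 3, leaving out Senp8+/- replicate 2 to 1, and leaving out wild-type replicate 1 to 0, while 10 of 10 kept an unadjusted limma p under 0.05 in each of these fits. For the 5 genes under study the count of 4 came to 2, 1 and 0 in the same 3 fits, with 5 of 5 at an unadjusted p under 0.05. Genes were in the table for an unadjusted p under 0.05 on this same contrast. The unadjusted counts were thus largely set by the listing and do not offset the lower adjusted counts.

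H2-Eb1, the β chain of the class II molecule H2-E, had 3231, 2480.2 and 3439.9 normalised counts in Senp8+/- replicates 1, 2 and 3. It had 11615, 11733 and 6234 in wild-type replicates 1, 2 and 3, the same order as H2-Aa. It fell 3.23-fold, from 9861 ± 3141 to 3050.4 ± 505 (authors' deposited adjusted p = 1.29e-05; limma adjusted p = 0.0128). Gm20513 overlaps it on the other strand. H2-Ea-ps, the α chain locus of H2-E, which is disabled in C57BL/6 mice, was not in the table.

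H2-DMa, the partner of H2-DMb1 in H2-DM, differed more than H2-DMb1 did. Its Senp8+/- replicates 1, 2 and 3 had 559, 432 and 546 normalised counts, and its wild-type replicates 1, 2 and 3 had 2048, 1796 and 1498. The fall was 3.48-fold, from 1781 ± 275 to 512 ± 70.1 (authors' deposited adjusted p = 1.25e-11; limma adjusted p = 0.00450). H2-DMb2, the second β chain gene of H2-DM, was far lower, at 10.3, 14.9 and 17.1 against 53.5, 39.1 and 30.6 in wild-type replicates 1, 2 and 3. The 2.91-fold fall of the means was called in the authors' deposited table (adjusted p = 0.0461) and did not pass in limma (adjusted p = 0.114).

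Both chains of H2-O, the inhibitor of H2-DM, were near the floor of detection and did not pass. H2-Ob had 4.32 ± 1.25 normalised counts in Senp8+/-, against 16.5 ± 7.82 in wild type (authors' deposited adjusted p = 0.213). H2-Oa had 0, 3 and 2 reads in Senp8+/- replicates 1, 2 and 3 and 12, 7 and 8 in wild-type replicates 1, 2 and 3 (authors' deposited adjusted p = 0.347). The antisense gene BC051537 overlaps H2-Oa.

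17 of the 27 list genes were not in the table. Among them are the DNA-binding partners of CIITA (Rfx5, Rfxap, Rfxank, Nfya, Nfyb, Nfyc and Creb1), the endosomal proteases Ctss, Ctsl, Ctsb, Ctsd and Lgmn, the reductase Ifi30, and the ubiquitin ligases March1 and March8, of which March1 removes class II from the surface. A gene outside the table had a p of 0.05 or more, less than a 2-fold difference, or was not tested or not used here. These cases cannot be told apart for one gene, so no level is given for them.

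**Figure D3:**
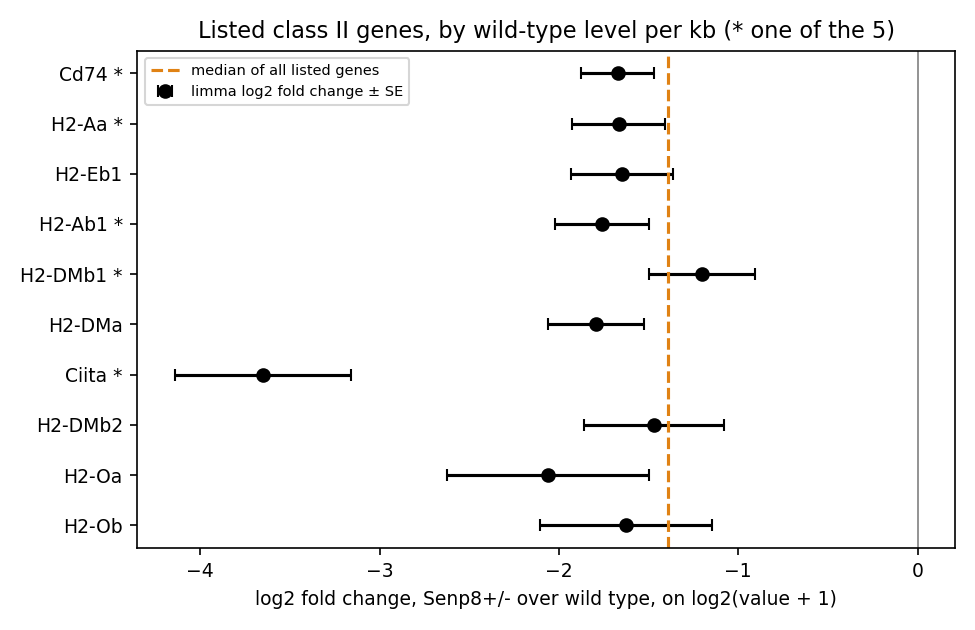
limma log2 fold change ± SE (Senp8+/- over wild type, 3 libraries each) of the 10 listed class II genes, ordered by wild-type level per kilobase, with an asterisk on the 5 genes under study and a dashed line at the median of the 714 listed genes (-1.39). The 714 include 145 genes higher in Senp8+/-. Ciita, at -3.65, lies apart from the other 9, which run from -2.06 (H2-Oa) to -1.20 (H2-DMb1, which turned to 0.0692 under the rescaling by median ratio).

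Per kilobase of gene model, the wild-type order was Cd74 with 23503 normalised counts, H2-Aa with 8524, H2-Eb1 with 8328, H2-Ab1 with 7090.1 and H2-DMb1 with 1425. H2-DMa followed with 1085 and Ciita with 43.1. In Senp8+/- the first 5 kept this order at 7378, 2624, 2576, 2065 and 601, and H2-DMa had 312. H2-Aa lay above H2-Ab1 per length in each of the 6 libraries. In wild type the ranges of H2-Aa, H2-Eb1 and H2-Ab1 overlapped, as did those of H2-DMb1 and H2-DMa, while Cd74 stood clear of H2-Aa. The range of Ciita overlapped that of H2-DMb2, the next gene below it.

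8 of the 10 listed class II genes sit in one stretch of chromosome 17, from 34092340 to 34316199 (223.9 kb). GENCODE M21 places 13 protein-coding genes there, and 11 were in the table, each lower in Senp8+/- (7 under the rescaling), of which 8 fell. Of all listed genes 79.7% were lower at the deposited scaling and 33.9% fell. Besides the 8 class II genes the 11 were Psmb8, Psmb9 and Tap1, which make and move peptides for MHC class I and, with H2-DMb1, turned under the rescaling. Brd2 and Tap2 were not in the table. Ciita and Cd74, on other chromosomes, fell as well.

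Of 19 genes upstream of Ciita or restraining it, 2 were in the table. Irf1, an interferon-γ-induced factor that acts on a Ciita promoter, had 2131, 1178 and 1657 normalised counts in Senp8+/- replicates 1, 2 and 3. It had 4529, 4020.1 and 3696 in wild-type replicates 1, 2 and 3, and fell 2.47-fold (authors' deposited adjusted p = 3.65e-04; limma adjusted p = 0.0330). Under the rescaling by median ratio the log2 fold change of Irf1 was -0.0655. The lowest wild-type library of Irf1 was replicate 3, where Ciita was highest. Il10, a cytokine that lowers surface class II, had 9.62 ± 4.67 normalised counts in Senp8+/-, 2.22 ± 1.02 in wild type, and did not pass (authors' deposited adjusted p = 0.390). Irf8, Spi1, Ifng and its receptor genes, and Nlrc5, the relative of Ciita for class I, were not in the table.

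Likeness was measured as the root mean square difference of log2(value + 1) over the 6 libraries, each gene centred on its own mean, among 219 genes that changed in the authors' table with a mean of at least its median (26.8). Nos2, the inducible nitric oxide synthase, was the closest to Ciita at 0.09, against a median of 1.33 over the 219. Nos2 had 15.4, 6.51 and 3.21 normalised counts in Senp8+/- replicates 1, 2 and 3 and 109.9, 60.2 and 167 in wild-type replicates 1, 2 and 3, so the order of all 6 libraries was that of Ciita. The Senp8+/- values of Nos2 rested on 15, 7 and 3 reads, so their order is uncertain by counting error alone. Nos2 fell 13.4-fold (authors' deposited adjusted p = 1.05e-07). With each library left out in turn, this ran from 10.1-fold without wild-type replicate 3 to 23.1-fold without Senp8+/- replicate 1. Next came Sorbs3, an adaptor protein gene, and Loxl2, a lysyl oxidase, both at 0.40. Cd74 and H2-Aa were 1.17 and 1.33 from Ciita, near that median. This distance also grows where genes differ in the size of their genotype difference. The Pearson correlation with Ciita over the 6 libraries, genotype difference included, was 0.955 for Cd74 and 0.821 for H2-Aa.

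The genes closest to the mean profile of H2-Aa, H2-Ab1 and Cd74 were C1ra, a complement protease, at 0.11, Hcar2, a receptor for nicotinic acid, at 0.12 and Tgtp2, an interferon-induced GTPase, at 0.14. H2-DMa, at 0.07, was nearer still, and H2-Eb1 lay at 0.15. Hcar2 was flat over Senp8+/- at 101 ± 2.24 and had 299 ± 56.7 in wild type, with replicate 3 lowest at 234. Tgtp2 has a near-identical neighbour, Tgtp1, so its reads are uncertain. The measure has 6 points that share 2 genotypes, and genes were in the table for differing between them.

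**Figure D4:**
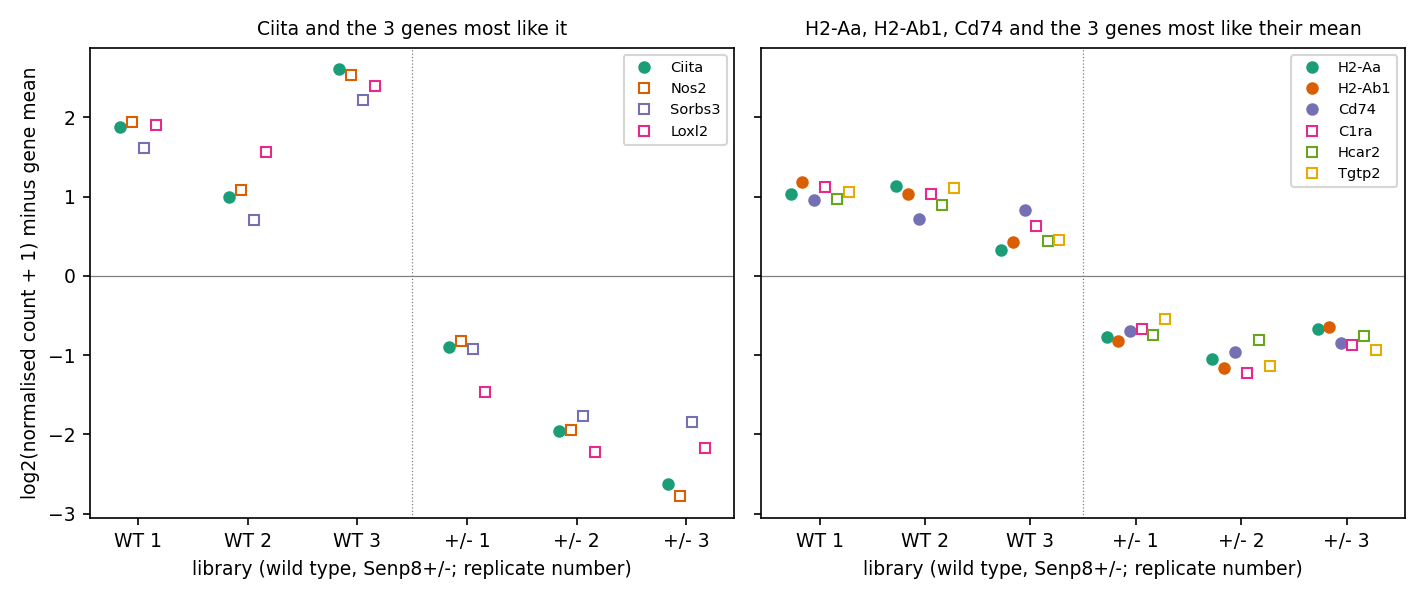
log2(normalised count + 1) minus the gene's mean over the 6 libraries, for Ciita with the 3 genes most like it (left) and for H2-Aa, H2-Ab1 and Cd74 with the 3 most like their mean (right); filled circles are the genes under study and open squares the others. Nos2 lies on Ciita in every library (root mean square difference 0.09), with wild-type replicate 3 highest, where H2-Aa and H2-Ab1 are lowest in wild type.

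Few markers of other cells that carry class II were in the table, and their part in the results was not tested. Of 14 dendritic cell markers 2 were in the table, and both fell, as did 33.9% of the listed genes. Clec9a, a receptor of cross-presenting dendritic cells, had 16.5, 9.30 and 11.8 normalised counts in Senp8+/- replicates 1, 2 and 3 and 75.3, 77.1 and 96.1 in wild-type replicates 1, 2 and 3. With Ccl22 their sum ran from 177 to 276 in Senp8+/- and from 545 to 786 in wild type. Flt3, Zbtb46, Itgax and the other 9 were not in the table. Of 12 B cell markers Cd79b alone was listed, at 11.7 ± 0.88 and 34.8 ± 10.7, and did not pass (authors' deposited adjusted p = 0.0569). Cd79a, Ms4a1 and Pax5 were not in the table.

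Of 13 macrophage markers C1qa and C1qc were in the table, neither passing and both turning under the rescaling, with sums of 8169 to 11604 in Senp8+/- and 10922 to 24342 in wild type. Of 12 monocyte and neutrophil markers 6 were in the table and all 6 fell, where 33.9% of the listed genes did. Their sums were 709.8 to 875 in Senp8+/- and 2466 to 3226 in wild type. Of these Retnlg had 0 reads in each Senp8+/- library. Of 12 T and NK cell markers 6 were listed, all lower, as 79.7% of the listed genes were, and 4 fell. Their sums were 13.02 to 19.6 in Senp8+/- and 102 to 181 in wild type, and Gzma and Ncr1 were at 0 in Senp8+/-. Cd3d, Cd3e, Cd3g, Cd8a, Klrb1c and Ifng were not in the table, and the part of these cells in the results was not tested.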

How the data were processed

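RNA sequencing of 6 libraries was used, grouped by sample title. The submitters' processing notes name HISAT2 2.0.5 for alignment and featureCounts 1.5.0-p3 for counting, roles taken from what the tools do. Not given in the sources used here: genome build, annotation, strand setting and the tool of the test. The authors deposited, per library, a signal made of read counts divided by 1 size factor. All values (100%) were whole multiples of a step per library within 1e-06, which gave back the reads. The authors deposited log2 fold changes, p-values and adjusted p-values; the last imply 14694 tested genes. The table has 714 genes selected on this contrast, so their effects are overstated on average, and it gives no depth or scaling. Its identifiers matched GENCODE M21 (GRCm38) for 714 genes, 687 with equal ends. Columns of samples outside this series numbered 0.

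limma 3.58.1 (R 4.3.3) took log2(value + 1) of the 714 genes, with genotype alone in the model, a trended prior variance and Benjamini-Hochberg adjustment over 14694 genes, unlisted ones taken to have larger p-values. The code was run on simulated counts, with equal odds of higher and lower genes, less spread than Ciita had and adjustment over the 714 genes. These settings differ from the data, whose genes were selected on this contrast, so that run does not measure error rates here. Ratios within libraries were compared by exact permutation. Fold changes on log2(value + 1) understate those of low genes. The text names the 5 genes, listed genes of the class II and upstream lists and of the marker lists, and the 3 genes most like Ciita and most like the mean of H2-Aa, H2-Ab1 and Cd74, leaving out predicted genes; C1qa, among the markers, was singled out after its values were seen. Genes and lists were chosen with earlier results of these data known. Alternatives were pseudocounts of 0.5 and 5, a mean of at least 10, edgeR 4.0.16 and DESeq2 1.42.0 on the recovered reads, 2 rescalings, a replicate block and leaving out each library.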

Additional observations from a re-analysis of the deposited data

How the results depend on the processing

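The 5 genes kept a negative log2 fold change in each alternative run, except that H2-DMb1 came to 0.0692 when libraries were rescaled by the median ratio over the listed genes, an alternative chosen after seeing the data. That rescaling moved the Senp8+/- libraries against wild type by 1.27 (log2), and rescaling to equal medians by 0.97, with low genes moving less on log2(value + 1). Since most listed genes are lower, both raise the fold changes by construction. The median log2 fold change of the 5 was -1.67 at the deposited scaling, -0.40 and -0.70 under these rescalings, and 1 of the 5 and 1 of the 10 listed class II genes, Ciita in each, passed limma's adjusted p. Leaving out each library gave medians from -1.92 to -1.61, counts of 0 to 5 for the 5 genes and 0 to 7 for the 10, and -2.57 to -1.49 for the log2 ratio of Ciita to the other 4. Each of these fits has less power than the full one, but the counts also depended on which library was left out. They were 0 of 5 and 0 of 10 without wild-type replicate 1, and 5 of 5 and 7 of 10 without wild-type replicate 3. The cause was not tested. The other pseudocounts gave 4 of 5 and 6 of 10, the minimum mean of 10 gave 4 of 5 and 6 of the 9 genes it left, edgeR gave 4 and 6, and DESeq2 gave 5 and 7, against 5 and 8 in the authors' deposited table. limma's adjusted p over all alternatives ranged up to 0.143 for Ciita and 1 for the other 4.

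With a replicate block the median remained -1.67, the ratio of Ciita -2.08, and the counts 4 and 6. The titles share replicate numbers, but deviations of same-numbered libraries correlated over the 714 genes at 0.01, 0.04 and -0.24, so the numbers were not taken to pair the samples. Depth limits H2-Oa and H2-Ob, with at most 6 reads in a Senp8+/- library, and Nos2, with 15, 7 and 3 reads in Senp8+/- replicates 1, 2 and 3.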
